A study of Mus musculus with 16 samples.

Results

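Mitochondrial ribosomal proteins were taken as every row of the 2 deposited gene count tables whose symbol is Mrpl or Mrps followed by a number, which gave 78 rows with 77 symbols out of 22114 rows. The tables come from RNA sequencing of mouse CD4-CD8-CD25+CD44- (DN3) thymocytes, the immature T-cell stage in which pre-leukemic stem cells arise in mice that carry an Lmo2 transgene. One table holds GFPhi and GFPlo DN3 cells (3 libraries each), and the other holds total DN3 cells of 4 genotypes. The first table addresses how cells that divide rarely differ from cells that divide often, and the second what the Lmo2 oncogene and the cell-cycle inhibitor p21 change.

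The labels give the strain as C57BL/6, and the study describes lines backcrossed to C57BL/6J. GFPhi and GFPlo cells were sorted from mice with both TetOP-H2B-GFP KI/+ and the CD2-Lmo2 transgene (Lmo2Tg), given doxycycline for 6 weeks to load histones with GFP and then left without it for 2 weeks, so that each division dilutes the label. Both groups therefore carry Lmo2Tg. The genotype table holds wild-type (WT, 3 libraries), p21-/- (2 libraries), Lmo2Tg (2 libraries) and Lmo2Tg p21-/- (2 libraries) mice at 6 weeks of age. The CD2 promoter drives Lmo2 in T-lineage cells from an early stage, and the study describes the RNA as pooled, so that the spread between libraries is a spread between pools. GFPhi and GFPlo cells came from shared cohorts of mice, but no source used here ties a replicate number to a cohort. In bulk RNA, fewer cells of a type and less RNA per cell cannot be told apart.

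Mitochondria keep their own ribosome, which translates the few messages of the mitochondrial genome, all of them for membrane subunits of the oxidative phosphorylation complexes. Its ribosomal RNA is made inside the organelle, but every one of its proteins is encoded in the nucleus, translated in the cytosol and imported. Large-subunit proteins are named Mrpl and small-subunit proteins Mrps. Some have a counterpart in the bacterial ribosome, and others were added during evolution of the mitochondrion. Mrps18a and Mrps30 kept their old names although both sit in the large subunit, and Mrps36 is now assigned to the 2-oxoglutarate dehydrogenase complex and not to the ribosome.

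By these roles, 30 rows were large-subunit proteins with a bacterial counterpart, 20 were large-subunit proteins found only in mitochondria, 16 were small-subunit proteins with a bacterial counterpart, 11 were small-subunit proteins found only in mitochondria, and 1 was Mrps36. The filter on low counts was passed by 75 of the 78 rows in the GFP table and by the same number in the genotype table. The 3 that failed did so in both. Mrpl53, a small large-subunit protein, had 1 to 4 counts per library in the GFP table and 0 in all 9 genotype libraries, and 88.0% of its exon bases lie under Gm42688 on the same strand. The 2 rows named Mrps23 had 0 counts in all 15 libraries. The filter removed no member through its level in 1 group only.

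The libraries held 26861394 to 31106213 counts in the GFP table and 13864936 to 16837667 in the genotype table, and the median member had 459 to 1287 counts per library. All 10 DN3 markers were detected in every library, with a summed level of 5430 to 8930 CPM (reads scaled to a common library size). Within the genotype table the targeted genes moved in the direction of the labels, but Cdkn1a reads remained in p21-/- libraries, more so without the transgene. Cdkn1a, which encodes p21, was at 26.3 to 49 CPM in WT and Lmo2Tg libraries, 14.3 and 17.7 CPM in p21-/- libraries and 3.5 and 4.35 CPM in Lmo2Tg p21-/- libraries. Lmo2 was at most 0.306 CPM without the transgene and 41.4 to 107 CPM with it. WT 3 and GFPhi 3 stood apart from the other libraries of their groups, and member counts and some of the list values are also given without them.

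Promoter sequences (RefSeq, GRCm38.p6, 250 bases before to 50 bases after the transcription start) were found for 68 of the 77 symbols, as 74 starts. Mrpl13, Mrpl15, Mrpl19, Mrpl38, Mrpl4, Mrpl54, Mrps28, Mrps34 and Mrps35 had no entry. Motifs of factors known to drive nuclear genes for mitochondria or ribosomes were searched on both strands: GCGCANGCG for NRF1, CCGGAAG for ETS factors such as GABP, AANATGGCG for YY1 and CACGTG, the E-box that MYC binds. The ETS motif was in 33.8% of member promoters and in 8.86% of all 32851 promoters. NRF1 motifs were in 21.6% against 6.25%, YY1 motifs in 13.5% against 2.38%, and E-boxes in 9.46% against 7.15%. At least one of the motifs was in 62.2% of member promoters, 62.3% of cytosolic ribosomal protein promoters, 59.5% of those of nuclear-encoded oxidative phosphorylation subunits and 20.9% of all promoters. A match of letters is a description of the sequence and not a measured binding site.

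The stretches below are the 100 bases before the start of 6 members that passed the test in at least one comparison, chosen to set starts with these motifs beside starts without them. Capitals mark the motifs, and where 2 motifs overlap the capitals run together. Mrpl17, Mrpl45 and Mrpl9 hold NRF1 motifs, Mrps18a holds an ETS motif, and Mrps6 and Mrps2 hold none of the motifs in this window. They lie at chr7:105811088-105811187 (minus strand), chr11:97315616-97315715 (plus), chr3:94443236-94443335 (plus), chr17:46110904-46111003 (plus), chr16:92058236-92058335 (plus) and chr2:28467966-28468065 (plus), in that order.
Mrpl17: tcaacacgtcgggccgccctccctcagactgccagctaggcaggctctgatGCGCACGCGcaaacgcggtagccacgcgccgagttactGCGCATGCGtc
Mrpl45: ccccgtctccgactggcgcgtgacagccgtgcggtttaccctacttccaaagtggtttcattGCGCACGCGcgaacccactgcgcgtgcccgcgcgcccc
Mrpl9: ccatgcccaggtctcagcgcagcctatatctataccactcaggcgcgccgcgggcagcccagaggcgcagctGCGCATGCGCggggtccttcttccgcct
Mrps18a: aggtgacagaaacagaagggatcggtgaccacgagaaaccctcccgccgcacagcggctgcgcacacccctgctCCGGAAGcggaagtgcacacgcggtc
Mrps6: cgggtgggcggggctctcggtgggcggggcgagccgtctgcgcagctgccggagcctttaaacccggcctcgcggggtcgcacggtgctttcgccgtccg
Mrps2: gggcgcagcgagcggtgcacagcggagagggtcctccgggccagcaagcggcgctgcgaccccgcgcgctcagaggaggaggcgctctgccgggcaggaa
Of the 17 starts of members that passed the test somewhere, 58.8% held at least one motif, against 63.2% of the 57 starts of the other members. Starts are not separate genes: the 17 belong to 15 symbols, with 3 from Mrpl2 that lie close together, and the 57 belong to 53 symbols. By motif, the ETS motif was in 17.6% against 38.6%, the E-box in 17.6% against 7.02%, NRF1 in 23.5% against 21.1% and YY1 in 11.8% against 14% of these starts. With so few starts these shares are a description, and no test was run on the differences.

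The members were expressed at a moderate and uneven level. Per kilobase of exon, the median of the 75 tested members was 15.7 CPM in the GFP table and 15.2 CPM in the genotype table, against 8.96 and 7.84 CPM for all genes tested. Nuclear-encoded oxidative phosphorylation subunits, the proteins that work beside the products of this ribosome, had medians of 46.9 and 48.8 CPM per kb. Small-subunit proteins found only in mitochondria had the lowest median of the 4 roles, at 7.55 and 6.89 CPM per kb, and the other roles lay between 14.9 and 18.6 CPM per kb.

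**Figure D1:**
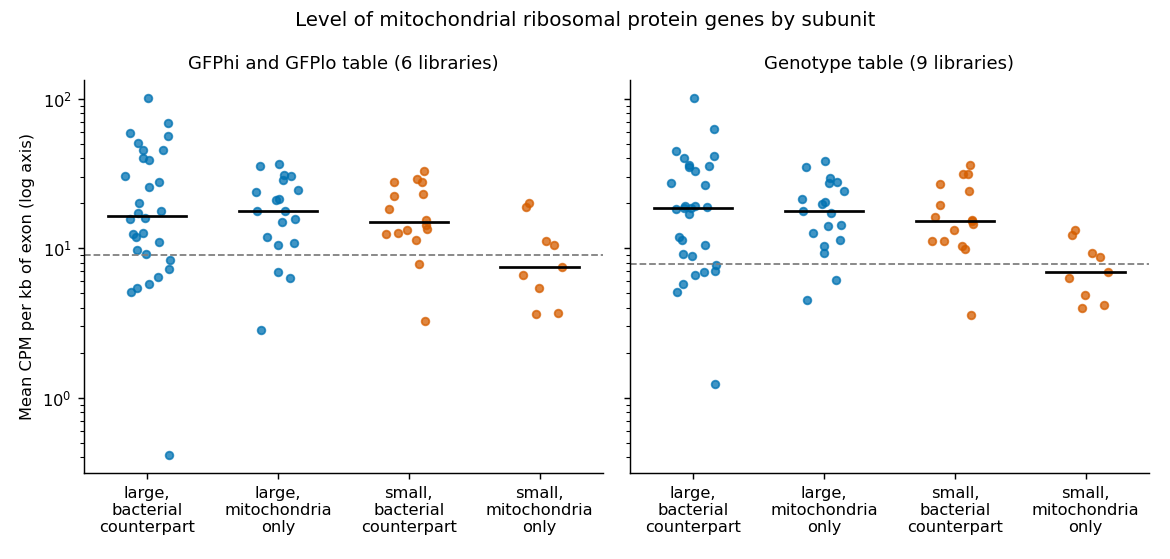
Mean level of each tested member in CPM per kb of exon (log axis), by subunit and origin, in the GFP table (left) and the genotype table (right). Each point is 1 member, black lines are medians, and the dashed lines are the medians of all genes tested (8.96 and 7.84 CPM per kb); Mrps36 is not drawn.

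Mrpl33 and Mrpl34, both small proteins of the large subunit, were highest in both tables, at 102 and 68.9 CPM per kb in the GFP table and 101 and 62.9 CPM per kb in the genotype table. The row used for Mrpl33 lies wholly under other annotated genes on the same strand (Babam2 and a second Mrpl33 record), so its level is uncertain. Next in order were Mrpl24 with 59.1 CPM per kb in the GFP table and Mrpl18 with 44.9 CPM per kb in the genotype table, and in the latter Mrpl24 came to 35.5 CPM per kb. Mrpl23 was the lowest tested member in both tables (0.413 and 1.23 CPM per kb). Above it came Mrps36 (1.95 CPM per kb) and Mrpl48 (2.82 CPM per kb) in the GFP table, and Mrps10 (3.58 CPM per kb) and Mrps35 (3.97 CPM per kb) in the genotype table. The 2 highest members and the lowest were thus the same in both tables, while the other places named here went to different members.

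In GFPhi cells the mitochondrial ribosome as a group was at the level of GFPlo cells. The members took 0.313% ± 0.0079 (SD, n = 3) of all counts in GFPhi and 0.312% ± 0.007 (SD, n = 3) in GFPlo libraries. The median log2 fold change over the 75 members was 0.03, against 0.02 over all 11581 genes tested, and 47 members were fitted higher and 28 lower. Single members did move: by edgeR's quasi-likelihood test at a Benjamini-Hochberg adjusted p under 0.05, 2 members rose and 2 fell, where 5.37% of all genes rose and 9.49% fell. Libraries of the 2 groups did not overlap for 12 members on the higher side and 10 on the lower side, against 19.6% and 21.7% of all genes tested.

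Mrps6, a small-subunit protein of bacterial origin on chromosome 16 (92058270 to 92112227, plus strand), rose most. It was at 23.9, 21.8 and 25.1 CPM in GFPhi and 14.8, 15.2 and 15.3 CPM in GFPlo libraries. Every GFPhi library lay above every GFPlo library, with a log2 fold change of 0.65 ± 0.09 (SE, adjusted p = 0.011). Of the exon bases of Mrps6, 19.9% lie under Slc5a3 and Gm49711 on the same strand. Slc5a3, a myo-inositol transporter gene nested in the same locus, had a log2 fold change of 0.64 ± 0.22 (SE, adjusted p = 0.1). How far reads of Slc5a3 enter the Mrps6 value was not tested.

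Mrpl17, a large-subunit protein with a bacterial counterpart (chromosome 7, 105803206 to 105811099, minus strand), was the other member that rose. Its levels were 42.5, 44.8 and 42.7 CPM in GFPhi and 32.8, 33.7 and 34.5 CPM in GFPlo libraries. The groups were apart by more than their whole spread, at a log2 fold change of 0.36 ± 0.06 (SE, adjusted p = 0.018). The promoter of this gene is the one above with 2 separate NRF1 motifs.

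Mrpl13, another large-subunit protein with a bacterial counterpart, fell. It was at 54.1, 53.7 and 51 CPM in GFPhi and 78.9, 76.1 and 80.7 CPM in GFPlo libraries. The 2 groups did not come near each other, and the log2 fold change was -0.57 ± 0.06 (SE, adjusted p = 0.004). The gene lies on chromosome 15 (55534094 to 55557748, minus strand). Chromosome 2 was set beside it here for copy number. The study reports frequent gains of both chromosomes in GFPlo cells and lower expression of their genes in GFPhi cells. How far extra copies in GFPlo cells enter the values of members on these chromosomes, Mrpl13 included, was not tested. With the genes of both chromosomes left out of scaling and test, 3 of 70 members passed and the median was 0.01, while 1125 of 10204 genes passed. Mrpl13, the only called member on these chromosomes, was itself left out, so this count cannot speak to copy number. With all libraries the 4 members on chromosome 2 did not pass the test, with log2 fold changes of -0.19 for Mrps2, -0.12 for Mrps5, -0.07 for Mrps26 and 0.00 for Mrpl41. Of these 4, only Mrps2 had all GFPhi libraries below all GFPlo libraries. Without GFPhi 3, Mrps5 was at -0.36 (adjusted p = 0.007 by the same test), and the other members on chromosome 2 did not pass. Mrpl2, which lines the peptidyl transferase centre and lies on chromosome 17, was at 38.7, 41.1 and 42.9 CPM in GFPhi and 50.1, 55.6 and 53.3 CPM in GFPlo libraries. Its GFPhi libraries were all lower, with a log2 fold change of -0.37 ± 0.07 (SE, adjusted p = 0.025).

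GFPhi 3 weighed on these counts. Without it 12 members rose and 5 fell, including the 4 above, while 4848 genes in all passed the test in place of 1721 (19.5% higher and 21.7% lower). With the replicate number as a block, Mrpl13 alone passed (adjusted p = 0.043), and the adjusted p was 0.063 for Mrps6, 0.075 for Mrpl2 and 0.082 for Mrpl17, with log2 fold changes of -0.57, 0.64, -0.37 and 0.36 in that order. Among those added, chosen after their values were seen, were Mrpl16 (log2 fold change 0.52), Mrpl32 (0.32) and Mrpl4 (0.31) on the higher side and Mrps5 (-0.36) on the lower side. Leaving out another library gave 1 to 3 calls, 2 each without GFPhi 1 or GFPhi 2 and 1 each without GFPlo 2 or GFPlo 3. In those runs 273 to 934 genes in all passed. Mrps5 shows how that library differed: it was at 40.6 and 43.1 CPM in GFPhi 1 and 2 and at 65.7 CPM in GFPhi 3, above all 3 GFPlo libraries (50.9, 56.3 and 55.1 CPM). Lmo2 itself was at 285 CPM in GFPhi 3 against 53.8 and 29.5 CPM in the other GFPhi libraries, and Cdkn1a was at 6.56 against 35.8 and 29.9 CPM. B-lineage markers also moved with the groups: their summed level was 50.6 to 142 CPM in GFPhi and 26.6 to 30.1 CPM in GFPlo libraries, and 6 of the 10 tested rose. Thymic epithelial markers summed to 40.5 to 90.4 CPM in GFPhi and 33.4 to 37.2 CPM in GFPlo libraries. Only 2 of these 6 markers passed the filter, and they went opposite ways. Epcam rose (log2 fold change 1.59, adjusted p = 0.023), and Cdh1 was fitted lower (-1.05, adjusted p = 0.12). Without GFPhi 3 both passed by the same test, Epcam at 1.29 (adjusted p = 0.0037) and Cdh1 at -1.36 (adjusted p = 0.016). The part of the B-lineage and epithelial markers in the member values was not tested.

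In Lmo2Tg against WT cells 8 of the 75 members fell, 1 rose and the others did not pass the test. The members took 0.281% ± 0.0132 (SD, n = 2) of counts in Lmo2Tg and 0.322% ± 0.0325 (SD, n = 3) in WT libraries. Of the 75 members 60 were fitted lower, the median log2 fold change was -0.20, and over all 11840 genes tested it was -0.01. By edgeR's quasi-likelihood test 10.7% of members fell and 1.33% rose, where 16.9% of all genes fell and 19.7% rose. Lmo2Tg libraries lay below all WT libraries for 33 members (44.0%), against 31.0% of all genes. No member changed more than 2-fold in any comparison.

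**Figure D2:**
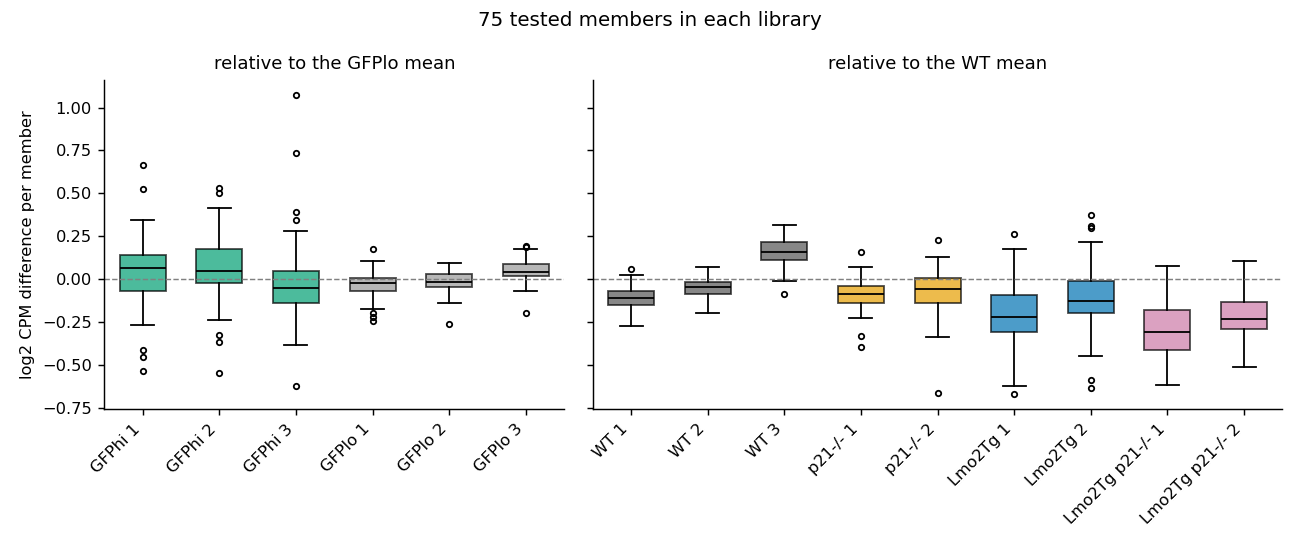
Difference in log2 CPM of each of the 75 tested members from the mean of the GFPlo libraries (left) or of the WT libraries (right), as 1 box per library (box: quartiles, line: median, whiskers: 1.5 times the interquartile range, points: members beyond). The boxes of the Lmo2Tg and Lmo2Tg p21-/- libraries sit below 0, WT 3 sits above WT 1 and WT 2, and the GFPhi and GFPlo boxes overlap.

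Mrps2, a small-subunit protein with a bacterial counterpart (chromosome 2, 28468066 to 28471178, plus strand), fell most. It was at 50.3, 55 and 58.1 CPM in WT and 34.2 and 35 CPM in Lmo2Tg libraries. The gap between the groups was wider than the spread within either, and the log2 fold change was -0.65 ± 0.1 (SE, adjusted p = 0.00045). Mrps6 was at 23.1, 23.5 and 25.7 CPM in WT and 15.6 and 16 CPM in Lmo2Tg libraries, with a log2 fold change of -0.61 ± 0.11 (SE, adjusted p = 0.0014). Its neighbour Slc5a3 fell here too, by 1.04 on the log2 scale (adjusted p = 0.00073). Over 16 alternatives the adjusted p was at most 0.0062 for Mrps2 and 0.013 for Mrps6 in this comparison.

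The other members that fell were the large-subunit proteins Mrpl17 (log2 fold change -0.49), Mrpl14 (-0.45), Mrpl1 (-0.39), which belongs to the mobile stalk, Mrpl16 (-0.34) and Mrps18a (-0.31), and the small-subunit protein Mrps25 (-0.29). Mrpl17 was at 40.3, 41.2 and 56.4 CPM in WT and 32 and 33.3 CPM in Lmo2Tg libraries. Here 1 WT library is far above the others, yet the Lmo2Tg libraries lie below all 3. Mrps18a was at 36.4, 34.5 and 41.6 CPM in WT and at 27.8 and 32.8 CPM in Lmo2Tg libraries (adjusted p = 0.049), and it passed the threshold in 3 of 16 alternatives, whose adjusted p ran from 0.036 to 0.32. Of the exon bases of Mrps25, 69.8% lie under Nr2c2 on the opposite strand. Nr2c2 had a log2 fold change of 0.11 ± 0.11 (SE, adjusted p = 0.48). How far reads of Nr2c2 enter the Mrps25 value was not tested.

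Mrpl9, a large-subunit protein that in bacteria reaches out from the base of the stalk, was the 1 member that rose in Lmo2Tg cells. It lies on chromosome 3 (94443318 to 94451130, plus strand). It was at 85.6, 83.4 and 88.2 CPM in WT and 103 and 106 CPM in Lmo2Tg libraries, with no overlap and a log2 fold change of 0.28 ± 0.08 (SE, adjusted p = 0.018).

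WT 3 held the highest member share of the genotype table, 0.359% against 0.298% and 0.308% in WT 1 and WT 2, and its cytosolic ribosomal protein share was 7.18% against 5.96% and 6.08%. Without it, 4 members fell (Mrps2, Mrps6, Mrpl1 and Mrpl17) and Mrpl9 still rose in Lmo2Tg cells, 52 of 75 members were fitted lower, and the median was -0.09, where 14.5% of all genes fell and 18% rose. The median shift in Lmo2Tg against WT thus depended on that library, while these 5 members passed with and without it. Without the first or second Lmo2Tg library the median was -0.13 or -0.23.

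**Figure D3:**
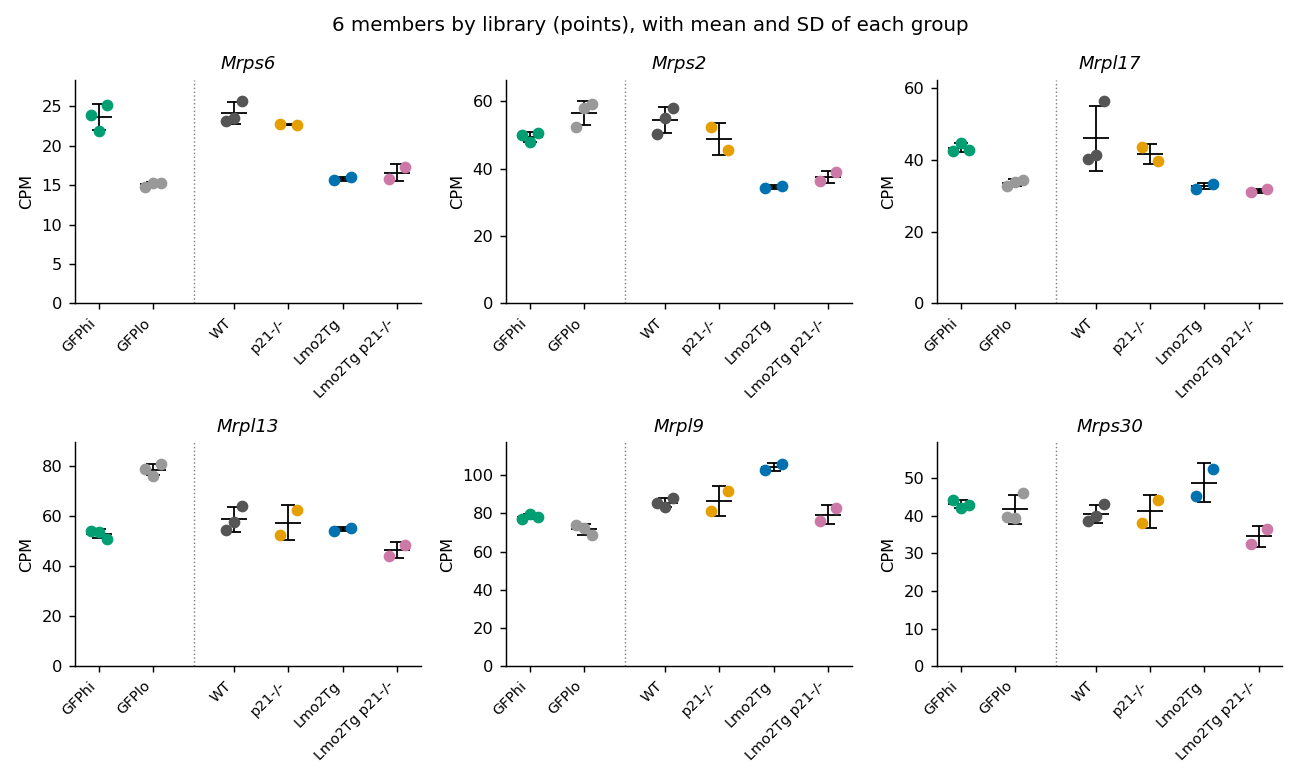
CPM of 6 members in every library (points), with the mean and SD of each group, the 2 tables being separated by the dotted line since they were counted and normalized separately. Mrps6 is high in GFPhi and low in Lmo2Tg, Mrpl13 is low in GFPhi, and Mrpl9 and Mrps30 are highest in Lmo2Tg. Within the genotype table, Mrps2 is low in Lmo2Tg and Lmo2Tg p21-/-.

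Between p21-/- and WT cells no member passed the test. By edgeR's quasi-likelihood test 0 of the 75 were called, 2 had an unadjusted p under 0.05 (Mrps34 at -0.50 and Mrpl22 at -0.27 on the log2 scale), and DESeq2 and limma-voom also called 0. Few genes passed at all, 0.0507% higher and 0.0591% lower. Although 62 of 75 members were fitted lower with a median of -0.09, this went with WT 3: without that library 37 were fitted lower, 38 higher, and the median was 0.00. With all libraries, both p21-/- libraries lay below all WT libraries for 10 members, against 9.62% of all genes.

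Between Lmo2Tg p21-/- and Lmo2Tg cells, 2 members fell. Mrpl9 was at 103 and 106 CPM in Lmo2Tg and 75.8 and 82.8 CPM in Lmo2Tg p21-/- libraries, which put the double mutant below the WT libraries. The log2 fold change was -0.39 ± 0.09 (SE, adjusted p = 0.026). Mrps30, a mitochondria-only protein of the large subunit (chromosome 13, 118378381 to 118387252, minus strand), was at 45.1 and 52.4 CPM in Lmo2Tg and 32.5 and 36.4 CPM in Lmo2Tg p21-/- libraries, a log2 fold change of -0.50 ± 0.12 (SE, adjusted p = 0.03). Among all genes 3.59% fell and 3.35% rose in this comparison, so that 2 of 75 is near the background. Of the members 58 were fitted lower, with a median of -0.09 against 0.02 for all genes tested, and for 36 members (48.0%) both Lmo2Tg p21-/- libraries were lowest, against 25.7% of all genes. Neither call held when either Lmo2Tg p21-/- library or the second Lmo2Tg library was left out, or when only the libraries of these 2 groups were fitted, and that of Mrpl9 was also lost without the first Lmo2Tg library and that of Mrps30 without WT 2. Without WT 3, Mrpl15 and Mrpl20 passed beside them, where 5.24% of all genes fell. Over 16 alternatives the adjusted p ran from 0.0058 to 0.19 for Mrpl9 and from 0.0085 to 0.21 for Mrps30.

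Mrpl9 and Mrps30 were also 2 of the 3 members with an unadjusted p under 0.05 for the interaction, the test of whether loss of p21 acted differently with and without the transgene. Their interaction terms were -0.41 ± 0.12 (SE, adjusted p = 0.11) and -0.52 ± 0.15 (SE, adjusted p = 0.12) on the log2 scale. The third was Mrpl44 at 0.40 (adjusted p = 0.24), a protein with an RNase III fold. None of the 75 passed by edgeR, and DESeq2 and limma-voom called 0 as well, where 0.279% of all genes passed on the higher side and 1.10% on the lower side. The median interaction was 0.01, with 38 members above 0 and 37 below, and without WT 3 it was -0.09 with 55 below.

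With p21 absent from both groups, 8 of the 75 members fell and the others did not pass the test between Lmo2Tg p21-/- and p21-/- cells. The members took 0.271% ± 0.0102 (SD, n = 2) of counts in Lmo2Tg p21-/- and 0.304% ± 0.0001 (SD, n = 2) in p21-/- libraries, and the ranges did not overlap. Of the 75 members 64 were fitted lower, with a median log2 fold change of -0.17 against 0.00 for all genes. By edgeR's quasi-likelihood test 10.7% of members fell, where 14.4% of all genes fell and 16.3% rose. Both Lmo2Tg p21-/- libraries lay below both p21-/- libraries for 55 members (73.3%), against 35.4% of all genes. WT libraries enter this comparison only through the shared estimate of spread, and without WT 3 the number that fell was 17, with the median still -0.17, and the share of all genes that fell was 17.3%. The median was -0.19 and -0.22 without the first or second Lmo2Tg p21-/- library, and -0.2 and -0.16 without the first or second p21-/- library. Without WT 2, 5 members fell, while 3175 genes in all passed in place of 3639.

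The 8 members were 4 small-subunit proteins with a bacterial counterpart, Mrps6 (log2 fold change -0.45), Mrps2 (-0.38), Mrps15 (-0.30) and Mrps5 (-0.25), the small-subunit protein Mrps25 (-0.41), and the large-subunit proteins Mrpl45 (-0.41), Mrpl2 (-0.35) and Mrpl21 (-0.30). Mrpl45, which sits at the exit of the polypeptide tunnel where the ribosome meets the inner membrane, was at 49.1 and 53.6 CPM in p21-/- and 38.1 and 39.3 CPM in Lmo2Tg p21-/- libraries. Mrps25 was at 38.3 and 34.7 CPM in p21-/- and 28 and 27 CPM in Lmo2Tg p21-/- libraries. Neither gene overlapped between the groups (adjusted p = 0.011 for both). Mrpl21 stood at the threshold (adjusted p = 0.05 after rounding) and passed in 5 of 16 alternatives, whose adjusted p ran from 0.035 to 0.28.

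**Figure D4:**
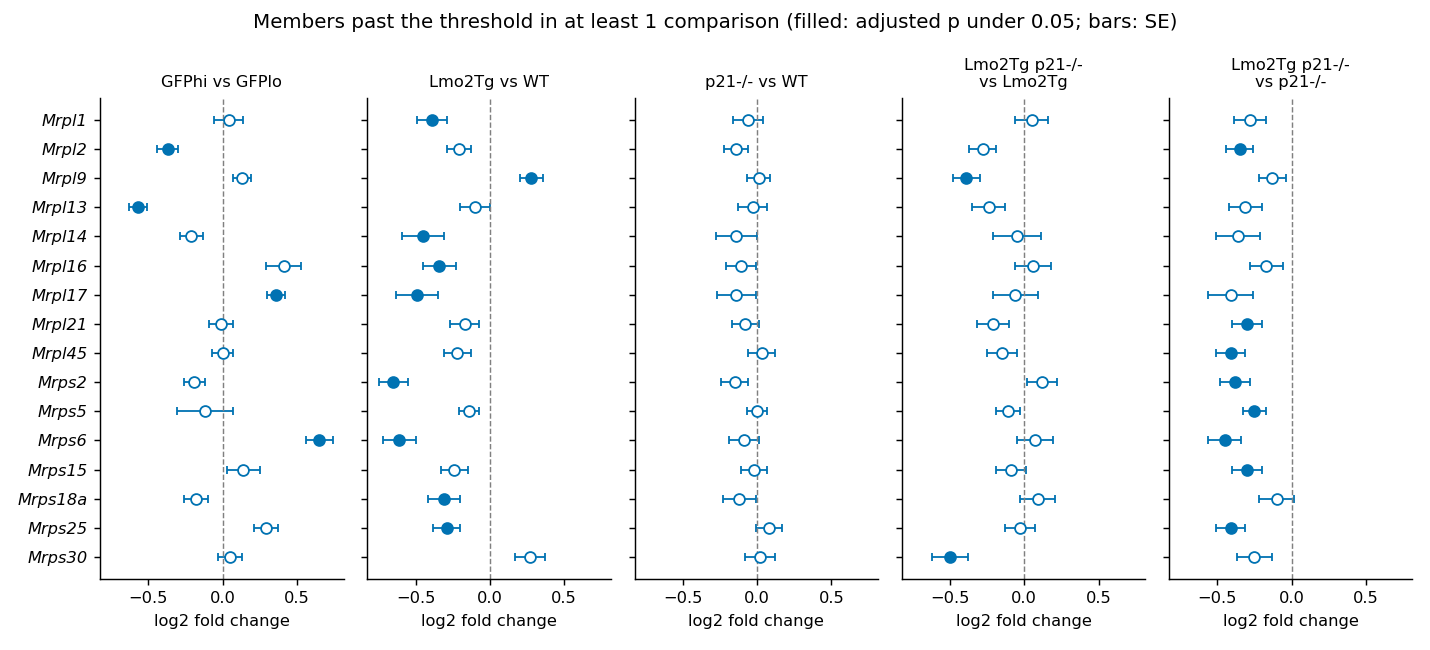
log2 fold change with its SE for the 16 members that passed the test in at least 1 comparison, filled where the adjusted p was under 0.05. Most filled points in the comparisons of the transgene with its control lie left of 0, those in GFPhi against GFPlo lie on both sides, and the p21-/- against WT column has none.

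Altogether 16 of the 75 tested members passed somewhere and 59 nowhere, where 54.8% of the 11252 genes tested in both tables passed in at least 1 comparison. Mrps6 passed in 3 comparisons, and Mrpl17, Mrpl2, Mrpl9, Mrps2 and Mrps25 in 2 each. Mrps6 and Mrpl17 had opposite signs in the sorted cells and in the genotypes: higher in GFPhi than in GFPlo cells, both with the transgene, and lower in Lmo2Tg than in WT cells. Mrpl16, named after its values were seen, had the same signs (0.41 in GFPhi against GFPlo, adjusted p = 0.07, and -0.34 in Lmo2Tg against WT). Mrps2, Mrps6 and Mrps25 fell with the transgene whether or not p21 was present, in comparisons that have no library in common but were fitted together. In Lmo2Tg against WT, Mrps2 and Mrps6 passed in all 16 alternatives, and Mrps25 in 10 of 16 and not without WT 3.

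Several further members are known for roles outside the ribosome or as one of a set of paralogues. Mrpl12, which also binds the mitochondrial RNA polymerase, had log2 fold changes of 0.11 in GFPhi against GFPlo, -0.19 in Lmo2Tg against WT and -0.29 in Lmo2Tg p21-/- against p21-/-, none past the threshold. Mrps12, a protein of the decoding site, was between -0.20 and 0.10 in the 5 comparisons. The bacterial S18 protein has 3 mammalian relatives, of which only Mrps18a passed anywhere: in Lmo2Tg against WT, Mrps18a was at -0.31, Mrps18b at -0.24 and Mrps18c at 0.02. The difference between the 3 was not tested. Mrpl41, which has been tied to growth control by p53, lay between -0.22 and 0.00, and its p21-/- against WT value was -0.16 (adjusted p = 0.98). Mrps36 was at 8.27 to 11 CPM in the genotype libraries and 2.16 to 3.07 CPM in the GFP libraries, with no comparison past the threshold.

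Ribosomal proteins with other names behaved within the same range. Ict1, the gene now called Mrpl58, encodes a peptidyl-tRNA hydrolase built into the large subunit. It fell in Lmo2Tg against WT (log2 fold change -0.40, adjusted p = 0.03), and without WT 3 it no longer passed (-0.26, adjusted p = 0.063). Chchd1 and Ptcd3, both of the small subunit, fell in Lmo2Tg p21-/- against p21-/- (-0.36 and -0.33, adjusted p = 0.027 and 0.0089). Dap3, the GTP-binding protein of the small subunit, lay between -0.10 and 0.06 in the 5 comparisons and passed in none.

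Genes that build and serve the ribosome were read in the same fits. Of 27 assembly factors, 6 (22.2%) fell in Lmo2Tg against WT, where 16.9% of all genes fell, with a median of -0.21. Without WT 3, 4 passed and the median was -0.13. Those that passed both ways included Tfb1m (-0.65), which methylates the small ribosomal RNA, and Eral1 (-0.33), its chaperone. Of 20 mitochondrial aminoacyl-tRNA synthetases and partners, 4 (20%) fell in the same comparison, Pars2 most (-1.11, adjusted p = 0.0023), and Pars2 rose when p21 was lost in Lmo2Tg cells (0.92, adjusted p = 0.04). Of 7 genes of mitochondrial transcription, Mterf2 (-0.53) and the RNA polymerase Polrmt (-0.26) fell in Lmo2Tg against WT, and without WT 3 Polrmt did not pass (-0.19, adjusted p = 0.089). Myc, which drives ribosome genes at large, fell by 0.88 in Lmo2Tg against WT (adjusted p = 0.0034). In GFPhi against GFPlo, Gabpb1, a partner of the ETS factor GABP, fell by 0.48 (adjusted p = 0.0048). In Lmo2Tg p21-/- against p21-/-, Gabpb1 rose by 0.25 (adjusted p = 0.026) and Esrra, another regulator read here, by 0.48 (adjusted p = 0.01). Of the 9 regulators tested, 6 were fitted higher in Lmo2Tg against WT, and 7 were fitted lower in Lmo2Tg p21-/- against p21-/-.

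Cytosolic ribosomal proteins and nuclear-encoded oxidative phosphorylation subunits set the members in context. In Lmo2Tg against WT the median log2 fold change was -0.20 for the members, 0.01 for 80 cytosolic ribosomal proteins and -0.07 for 80 oxidative phosphorylation subunits. Without WT 3 these were -0.09, 0.10 and -0.01, so the members stayed about 0.2 below the cytosolic set in both cases. In Lmo2Tg p21-/- against Lmo2Tg the order was turned around, at -0.09 for the members, -0.23 for cytosolic ribosomal proteins and -0.19 for oxidative phosphorylation subunits, and 79 of 80 cytosolic ribosomal proteins were fitted lower against 58 of 75 members. For the interaction the medians were 0.01, -0.18 and -0.11, and without WT 3 they were -0.09, -0.28 and -0.21. In Lmo2Tg p21-/- against p21-/- all 3 sets were near each other (-0.17, -0.17 and -0.18). These are medians over genes that share libraries, and no test was run on their differences.

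**Figure D5:**
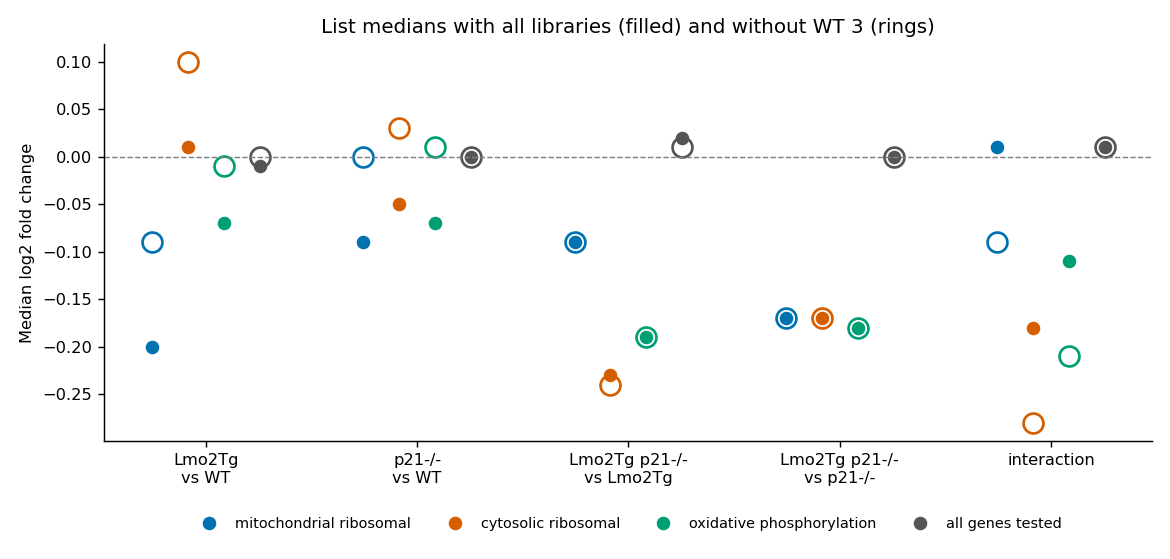
Median log2 fold change of the 75 members, of cytosolic ribosomal proteins, of nuclear-encoded oxidative phosphorylation subunits and of all genes tested in the genotype comparisons, with all libraries (filled) and without WT 3 (rings). The members are lowest in Lmo2Tg against WT (-0.20), the cytosolic set is lowest in Lmo2Tg p21-/- against Lmo2Tg (-0.23), and the comparisons that use WT move when WT 3 is left out.

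Signs of cell division and of cell identity moved with some of these groups. In Lmo2Tg p21-/- against p21-/-, 8 of 10 proliferation genes fell, Ccnb1 by 0.75 and Mki67 by 0.58 on the log2 scale, and in Lmo2Tg against WT 2 of 10 fell, Ccnb1 and Mcm2, of which Mcm2 passed without WT 3. In GFPhi against GFPlo all 10 were fitted lower (median -0.32) and none passed by edgeR, 1 having an unadjusted p under 0.05. Their summed level was 3460, 3890 and 2380 CPM in GFPhi and 3290, 4110 and 4630 CPM in GFPlo libraries, and without GFPhi 3 the median was -0.12 and 1, Pcna, passed. Of the 10 DN3 markers 7 fell and 1 rose in Lmo2Tg against WT, Rag2 at -2.33 and Dtx1 at 0.90 on the log2 scale. Of 6 markers of more mature thymocytes 3 rose and 2 fell, Cd2 at 4.05 and Ccr7 at -1.02, and the list summed to 125 and 156 CPM in Lmo2Tg and 43.1 to 50.9 CPM in WT libraries. Thymic epithelial markers summed to 30.1 and 33.7 CPM in Lmo2Tg and 110 to 118 CPM in WT libraries. Of these 6 markers only Epcam and Cdh1 passed the filter, and they fell (log2 fold changes -1.46 and -2.27). Another 2 or 3 of the 6 had 0 counts in each of these libraries, and how much of the sum came from epithelial cells was not tested. Of 8 myeloid and dendritic markers tested 4 rose and 1 fell, and the list summed to 35.2 and 41.7 CPM in Lmo2Tg and 20.4 to 28.3 CPM in WT libraries. In Lmo2Tg p21-/- against p21-/-, 7 DN3 markers fell and 1 rose, 3 of the more mature thymocyte markers rose and 1 fell, 3 myeloid markers rose, and both epithelial markers tested fell. Their part in the lower member levels was not tested.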

How the data were processed

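Poly(A) RNA of sorted DN3 thymocytes was sequenced. The authors aligned reads to mm10 with STAR 2.4.2a and counted reads per gene with featureCounts, per the submitters' processing notes, and deposited raw counts of protein-coding genes in 2 tables. The tables' own names read as reverse-stranded counting for the GFP table and unstranded counting for the genotype table, which no other source states, so opposite-strand overlaps may weigh differently in each. 1 column of the genotype table matched no labelled sample and was not used, and p21-/- replicate 3 was not analysed here. The Lmo2Tg columns could not be tied to single samples and are called first and second.

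Members were picked by symbol. The members, gene lists and tests were chosen with earlier results of these data known. Each table was fitted on its own with edgeR 4.0.16 (R 4.3.3): TMM scaling, filterByExpr (minimum count 10, total 15) and the quasi-likelihood test, called at a Benjamini-Hochberg adjusted p under 0.05 over all genes tested, with the 9 genotype libraries sharing 1 estimate of spread. DESeq2 1.42.0 and limma-voom (limma 3.58.1) were alternatives, as were other scalings, filters and thresholds, each library left out, and a correction for GC content and length added after seeing the data. CPM are TMM-scaled, and levels are per kb of union exon length (GENCODE M21, which matched 98.6% of gene IDs). All tests are two-sided, and since each library is a pool, p-values measure the spread between these libraries. The scripts were tested on simulated data. Named members were up to 6 called per direction and comparison with the largest fold and no overlap, the 3 highest and 3 lowest by level, those failing the filter, and a panel (Mrpl12, Mrpl13, Mrpl41, Mrpl58, Mrps12, Mrps18a, Mrps18b, Mrps18c, Mrps30 and Mrps36).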

Additional observations from a re-analysis of the deposited data

How the results depend on the processing

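No member called in a comparison changed direction under any alternative run. With an adjusted p under 0.01, the number of members called went from 4 to 1 in GFPhi against GFPlo, from 9 to 2 in Lmo2Tg against WT, from 2 to 0 in Lmo2Tg p21-/- against Lmo2Tg and from 8 to 0 in Lmo2Tg p21-/- against p21-/-. With an added 2-fold threshold each became 0. DESeq2 called 9 members in GFPhi against GFPlo, and fitting only the compared groups called 0 in Lmo2Tg p21-/- against Lmo2Tg. Leaving out 1 library at a time gave 1 to 17, 2 to 12, 0 to 4 and 1 to 17 members in those 4 comparisons, and the median in Lmo2Tg against WT ran from -0.26 to -0.09. Where this left 1 library in a group, it was assumed to vary like the other groups. Of single member values, 113 lost the threshold, 4 gained it, and 12, none of them called, moved by more than their SE. The other 1103 stayed called in the same direction or, where not called, moved by less than their SE. The sign of values not called was not checked and could change.

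With 2 or 3 libraries per group, correlations cannot settle whether replicate numbers pair the samples. The deviations of same-numbered GFPhi and GFPlo libraries correlated at 0.07, -0.079 and 0.099, and those of p21-/- and WT at -0.237 and 0.303. With the replicate block 1 member was called in GFPhi against GFPlo (496 genes in all), and the p21-/- against WT median was 0.01 in place of -0.09.

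Over all genes, calls in GFPhi against GFPlo went from 1721 to 2913 with DESeq2, 403 under 0.01, 731 with the 2-fold threshold and 1125 without chromosomes 2 and 15. Under 0.01 and with the 2-fold threshold they went from 4329 to 2550 and 1420 in Lmo2Tg against WT, from 822 to 172 and 222 in Lmo2Tg p21-/- against Lmo2Tg (404 with only those groups), from 3639 to 2020 and 1230 in Lmo2Tg p21-/- against p21-/-, and from 163 to 0 and 95 for the interaction, which rose to 459 with DESeq2 and 520 with no filter. In p21-/- against WT, 13 became 20 with DESeq2 and 21 with no filter. Leaving out 1 library at a time gave 273 to 4848, 2815 to 4248, 60 to 1128 and 1914 to 4251 genes in the 4 comparisons in the order above, 0 to 449 for the interaction and 8 to 18 in p21-/- against WT. The cause of these changes was not tested.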

Other observations

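The GFPlo and Lmo2Tg libraries are both DN3 cells with the transgene, in tables that were counted and normalized separately, so their levels are set side by side with no test. Per kb of exon, the ratio of the GFPlo to the Lmo2Tg level had a median of 1.03 over 75 members and lay within 1.5-fold for 63 of them. Mrps34 was the 1 member over 2-fold, at 19.0 against 4.08 CPM per kb. Of its exon bases 63.4% are overlapped on the opposite strand and 37.0% on the same strand, and their part in the ratio was not tested. Mrps36 was at 1.87 against 8.5 CPM per kb, and Mrpl23 and Mrps33 had ratios of 0.324 and 0.427. Mrps2, the member that fell most in Lmo2Tg against WT, was at 19.4 against 11.9 CPM per kb, a ratio of 1.63. Cytosolic ribosomal proteins had a median of 37.3 CPM per kb in the GFP table and 345 CPM per kb in the genotype table, while the members stood at 15.7 and 15.2 CPM per kb.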
